A study of Homo sapiens with 11 samples.

Results

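The SLC25 genes encode mitochondrial carriers, proteins that move metabolites across the inner mitochondrial membrane. They were described here in cardiomyocytes made from the human stem cell line WTC11, an established line of induced pluripotent cells, over long culture. Members were all genes of the count table whose symbol is SLC25A followed by digits, which gave 43 of 19990 genes. The annotation used here (GENCODE 29) holds 48 such symbols, and SLC25A2, SLC25A6, SLC25A31, SLC25A47 and SLC25A52 were not analysed here. The rule reads the symbol alone. All groups shared 1 differentiation of the line at passage 63, directed with CHIR99021, which inhibits the kinase GSK3, and then IWP2, which blocks Wnt secretion, and all were fed B27 medium with insulin. The groups were Day 30 of culture with 4 wells, Day 60 with 3 and Day 113 with 4, and their poly(A) RNA was sequenced. The wells are parallel cultures of that differentiation, so the spread covers neither another differentiation nor another line, and day of culture and collection cannot be told apart.

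The carriers link the cytosol to the matrix, where respiration, the citric acid cycle and iron-sulfur cluster synthesis take place. ADP/ATP carriers and the phosphate carrier supply the ATP synthase and export its product, which in heart muscle is the main source of energy for contraction. The malate-aspartate shuttle brings reducing equivalents from glycolysis into the matrix, and the carnitine/acylcarnitine carrier brings in fatty acids. Other members carry citrate, amino acids, iron, glutathione, nucleotides or cofactors, and a few sit outside the inner membrane or have roles that are little known.

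The libraries held between 24.1 and 34.5 M counts (1 M is 1000000), and the carriers took 0.247% to 0.327% of them. Levels are counts per M library counts after TMM scaling (CPM), and 3 counts, the limit that a count of 0 allows, correspond to 0.0856 to 0.120 CPM. Cardiomyocyte marker genes summed to between 30021 and 42051 CPM in every well. The RNA of a well is a mixture, so fewer cells of a type and less RNA per cell cannot be told apart. Differences were tested with edgeR's quasi-likelihood F-test over all 19990 genes, and a gene is called changed at an adjusted p under 0.05. Markers of other cells also moved with the day: all 7 hepatocyte or endoderm markers and 5 of 6 epithelial markers fell between Day 30 and Day 60, and all 6 endothelial markers rose and all 4 markers of dividing cells fell between Day 60 and Day 113. Across Day 30, Day 60 and Day 113 in turn, 7 hepatocyte or endoderm markers summed to 471 to 1370, 47.3 to 57.0 and 11.7 to 42.3 CPM, and 6 epithelial markers to 2146 to 3062, 1288 to 1475 and 1174 to 1963 CPM. Over the same days, 6 endothelial markers summed to 52.9 to 75.5, 37.1 to 60.4 and 182 to 748 CPM, 6 fibroblast markers to 2004 to 4521, 1107 to 1963 and 3021 to 7628 CPM, 3 smooth muscle markers to 446 to 685, 522 to 675 and 702 to 1096 CPM, and 4 markers of dividing cells to 282 to 354, 457 to 674 and 176 to 338 CPM. The sums hide markers that moved apart. From Day 30 to Day 113, 3 of the 6 fibroblast markers rose and 2 fell, and 3 of the 9 cardiomyocyte markers rose and 2 fell. Between Day 60 and Day 113, 2 of the 6 epithelial markers rose and 2 fell. LIN28A, the pluripotency marker measured, was at 0 in every Day 113 well. The part of these cells in the results below was not tested.

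The promoters of 4 carriers whose RNA moved in different ways are shown first. The windows of the ADP/ATP carriers SLC25A4 and SLC25A5 hold TATAA, and those of SLC25A42 and SLC25A36 do not. Each is the 250 bases before the RefSeq start (GRCh38.p14, plus strand, 5′ to 3′). Capitals mark CCAAT or its reverse complement ATTGG and TATAA or its reverse complement TTATA. SLC25A4 lies at chr4:185143016-185143265, SLC25A5 at chrX:119468194-119468443, SLC25A42 at chr19:19063744-19063993 and SLC25A36 at chr3:140941586-140941835.
SLC25A4: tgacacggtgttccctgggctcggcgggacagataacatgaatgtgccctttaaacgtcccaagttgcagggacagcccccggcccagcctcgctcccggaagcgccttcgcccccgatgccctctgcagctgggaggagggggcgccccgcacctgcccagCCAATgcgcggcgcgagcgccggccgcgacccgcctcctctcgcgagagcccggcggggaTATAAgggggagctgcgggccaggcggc
SLC25A5: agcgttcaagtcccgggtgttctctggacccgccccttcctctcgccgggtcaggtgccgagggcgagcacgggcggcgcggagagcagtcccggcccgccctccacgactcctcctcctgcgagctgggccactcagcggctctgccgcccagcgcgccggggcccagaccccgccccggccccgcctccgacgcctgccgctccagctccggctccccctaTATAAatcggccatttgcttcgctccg
SLC25A42: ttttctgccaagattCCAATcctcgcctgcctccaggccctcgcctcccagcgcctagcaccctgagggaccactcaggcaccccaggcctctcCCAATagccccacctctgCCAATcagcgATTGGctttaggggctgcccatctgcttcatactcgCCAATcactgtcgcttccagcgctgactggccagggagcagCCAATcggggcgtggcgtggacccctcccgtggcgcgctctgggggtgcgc
SLC25A36: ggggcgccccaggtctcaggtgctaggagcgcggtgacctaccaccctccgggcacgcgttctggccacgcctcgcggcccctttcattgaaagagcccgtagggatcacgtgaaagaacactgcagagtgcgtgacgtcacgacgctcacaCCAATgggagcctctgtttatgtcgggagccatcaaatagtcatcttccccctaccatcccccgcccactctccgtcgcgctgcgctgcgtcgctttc
The SLC25A4 window held 1 CCAAT and 1 TATAA, and that of SLC25A5 held 1 TATAA. In the SLC25A42 window there were 6 CCAAT matches, 5 on the plus strand and 1 on the minus strand, and in that of SLC25A36 there was 1. RefSeq windows were found for 36 member genes, 46 windows in all. CCAAT on either strand stood in 20 of these 46 windows (43.5%), against 32.0% of all 34961 promoters and 31.8% of the 19563 promoters of genes in the count table. GGGCGG, the GC box, stood in 67.4% of member windows, against 42.7% of all promoters and 57.4% of those of table genes. TATAA stood in 13.0% of member windows, against 18.9% of all and 13.1% of those of table genes. CCGGAAGT, an ETS core, was found at 4 members (8.7% of windows, against 3.43% of all and 4.82% of those of table genes), namely SLC25A17, SLC25A24, SLC25A26 and SLC25A46. Member windows had a median GC content of 65.8%, against 58.4% in all promoters and 63.2% in those of table genes. A match is a description of the letters and not a bound site.

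More carriers were called between Day 60 and Day 113 than between Day 30 and Day 60, and most of the later calls were falls. From Day 30 to Day 60, 3 of 43 members rose and 0 fell (6.98%), where 10.3% of all genes were called, 4.39% higher and 5.91% lower. At an unadjusted p under 0.05, edgeR had 13 members in this comparison, 5 of them lower. At an adjusted p under 0.05, DESeq2 called 3 higher and 1 lower. From Day 60 to Day 113, 5 rose and 11 fell, which is 37.2% of members, where 24.0% of all genes were called, 12.9% higher and 11.1% lower. Over the whole span from Day 30 to Day 113, 5 rose and 9 fell (32.6%), where 34.5% of all genes were called, 17.3% higher and 17.2% lower. The median log2 fold change of the members was -0.01, 0.03 and 0.04 in these comparisons, and that of all genes was -0.01, 0.00 and -0.02. The wells did not overlap for 13 members between Day 30 and Day 60 (30.2%, against 24.8% of all genes), for 19 between Day 60 and Day 113 (44.2%, against 30.6%) and for 18 between Day 30 and Day 113 (41.9%, against 35.1%). Over the whole span the share of members called was thus near that of all genes. In the first comparison, on 3 calls, it was lower, and in the middle one higher. Among all genes, too, more were called after Day 60 than before it (24.0% against 10.3%).

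Wells are named by their replicate number in the labels. The count from Day 60 to Day 113 depended on single wells: without the first Day 60 well, 8 members were called in place of 16, and without the third, 10. The 3 calls between Day 30 and Day 60 came to 0 without the third Day 30 well or without the first Day 60 well, to 1 without the second Day 30 well, and to 5 without the second Day 113 well. A removal leaves fewer wells for every gene. The shares of all genes given above are from the full set of wells, so they do not apply to these counts. The 3 comparisons share their wells and are not independent. Among the members, 7 fell both from Day 60 to Day 113 and over the whole span, namely SLC25A3, SLC25A5, SLC25A13, SLC25A23, SLC25A26, SLC25A36 and SLC25A37. SLC25A10, SLC25A45 and SLC25A46 rose in the same 2 comparisons. Taken singly, 11.1% and 17.2% of all genes fell in these comparisons, and 12.9% and 17.3% rose. The share of all genes called in both was not counted, so these joint counts cannot be set against it.

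**Figure D1:**
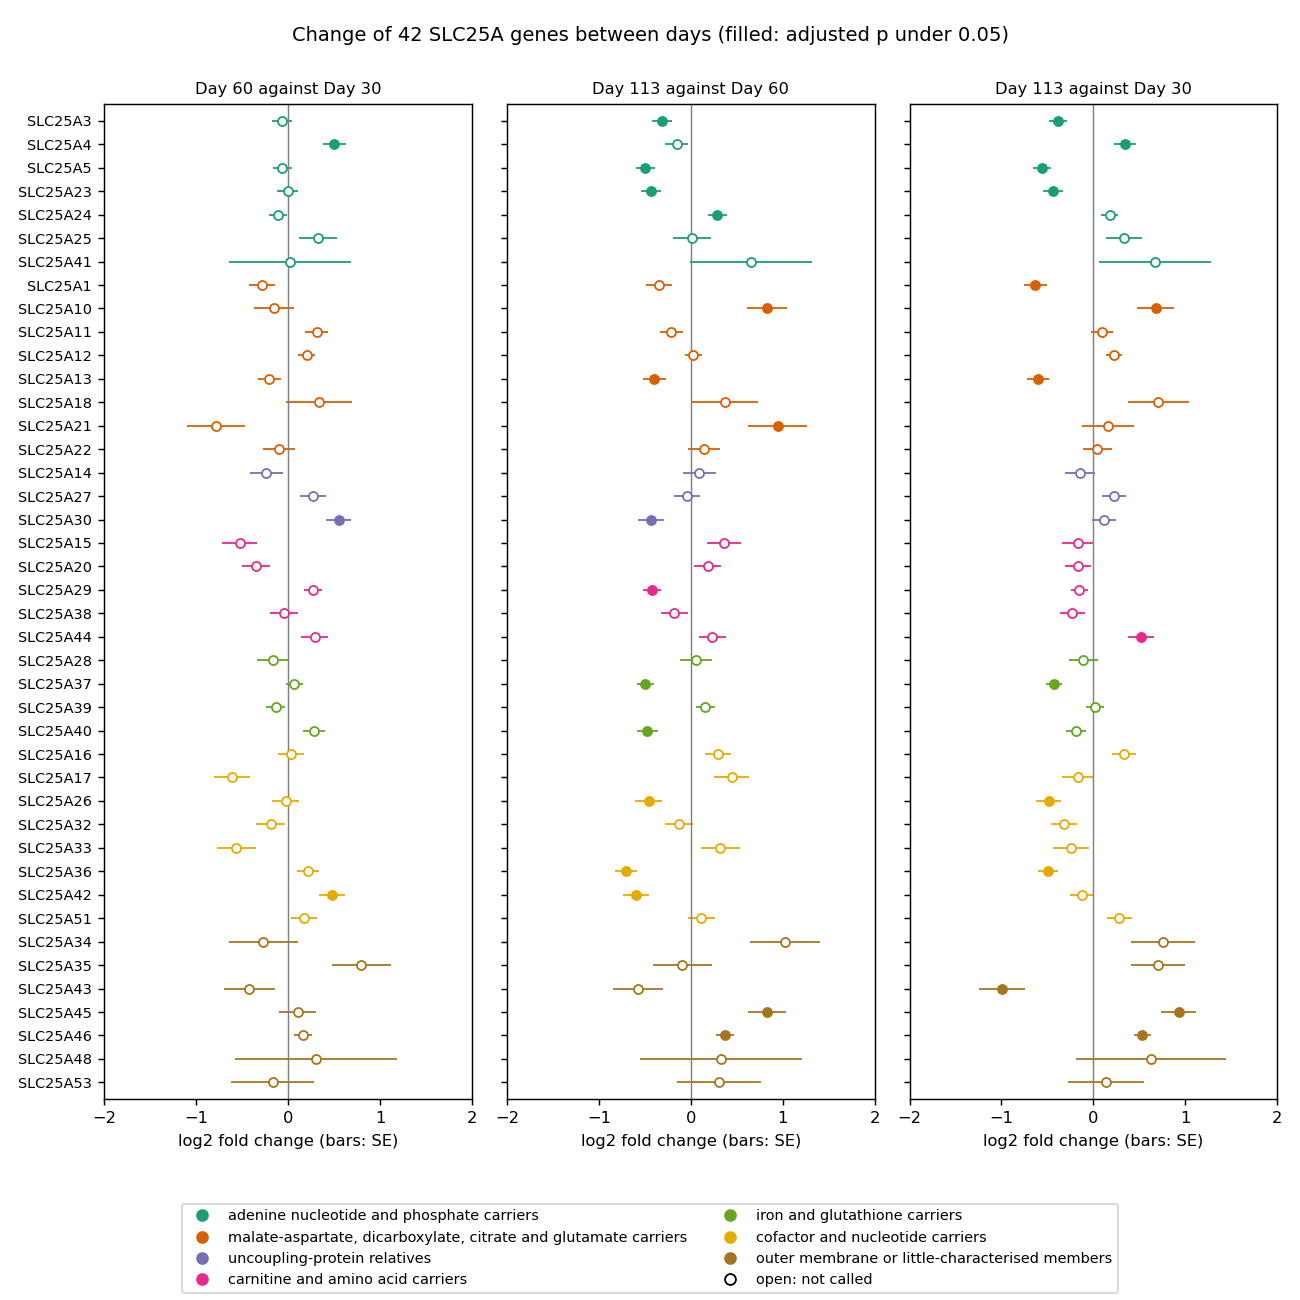
Log2 fold change of 42 of the 43 carriers (points; bars are standard errors) between Day 60 and Day 30, Day 113 and Day 60, and Day 113 and Day 30, coloured by role, with filled points for an adjusted p under 0.05. Filled points number 3, 16 and 14 in the 3 panels, and in the middle panel 11 of them lie below 0.

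Among the adenine nucleotide and phosphate carriers, over the whole span SLC25A4 rose while SLC25A5 and the phosphate carrier SLC25A3 fell. These changes did not share an interval. SLC25A4 had risen by Day 60, and its change after that day was not called (log2 -0.15, SE 0.13, adjusted p 0.43). SLC25A5 and SLC25A3 were not called by Day 60 and fell after it, when the carrier of this group that rose was SLC25A24. Of the 7 members of this role, 1 rose between Day 30 and Day 60, 1 rose and 3 fell between Day 60 and Day 113, and 1 rose and 3 fell over the whole span. Calls thus covered 14.3%, 57.1% and 57.1% of the role, against 10.3%, 24.0% and 34.5% of all genes. The same shares of all genes apply to the counts by role and by list below. SLC25A4 (ANT1, chromosome 4, 185143241 to 185150382 in GRCh38) is the ADP/ATP carrier typical of heart and skeletal muscle. Its wells held 426, 404, 332 and 462 CPM at Day 30, 657, 566 and 501 CPM at Day 60 and 454, 588, 503 and 523 CPM at Day 113. Every Day 60 well lay above every Day 30 well, whereas the lowest Day 113 well overlapped with Day 30. SLC25A4 was 1.42-fold higher at Day 60 than at Day 30 (log2 0.50, SE 0.13, adjusted p 0.018) and 1.27-fold higher at Day 113 than at Day 30 (log2 0.35, SE 0.12, adjusted p 0.032). The first call was lost without the third Day 30 well (adjusted p 0.061) or the first Day 60 well (adjusted p 0.095). The second was lost when any 1 of 6 wells was left out (replicates 1, 2 or 3 of Day 30, or 2, 3 or 4 of Day 113), with an adjusted p of 0.051 to 0.11, the highest without the third Day 30 well.

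SLC25A5 (ANT2, chromosome X, 119468400 to 119471319) is the ADP/ATP carrier typical of dividing cells. It held 263, 265, 246 and 258 CPM at Day 30, 255, 242 and 244 CPM at Day 60 and 166, 202, 149 and 183 CPM at Day 113. All 4 Day 113 wells lay below all 7 earlier wells. The fall from Day 60 to Day 113 was 0.49 on the log2 scale (log2 -0.49, SE 0.10, adjusted p 0.0024), and from Day 30 the log2 fold change was -0.56 (SE 0.09, adjusted p 0.00027). Both calls held in all 19 alternatives run on counts. The 4 markers of dividing cells also fell between Day 60 and Day 113, and their part in the fall of SLC25A5 was not tested. The annotation lists 9 pseudogenes of SLC25A5 and an antisense gene over 227 bases of its exons, and reads shared with these cannot be told apart here.

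SLC25A3 (chromosome 12, 98593591 to 98606379) imports the phosphate that the ATP synthase joins to ADP. Its wells measured 666, 712, 662 and 658 CPM at Day 30, 665, 647 and 614 CPM at Day 60 and 441, 617, 475 and 532 CPM at Day 113. Day 113 was the lowest day, with wells from 441 to 617 CPM and no overlap with Day 30, but 1 well overlapped with Day 60. The log2 fold change from Day 30 to Day 113 was -0.39 (SE 0.10, adjusted p 0.0077). After Day 60 it was -0.31 (SE 0.11, adjusted p 0.047), a call that 9 of the 11 removals of 1 well ended (adjusted p 0.060 to 0.13).

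Per kilobase of 1 transcript a gene, SLC25A3 had the highest mean level at every day, 402, 383 and 308 CPM per kb. SLC25A5 followed with 203, 194 and 137 CPM per kb, and SLC25A4 with 91.4, 129 and 116 CPM per kb. The first place depends on the length used. The transcripts were 1678 bases long for SLC25A3, 1274 for SLC25A5 and 4440 for SLC25A4, while all annotated exons span 8896, 1500 and 4844 bases. Per kilobase of all exons, a length tried after seeing the data, SLC25A5 came first at every day with 172, 164 and 117 CPM per kb, then SLC25A4 with 83.8, 119 and 107, and then SLC25A3 with 75.8, 72.2 and 58.1.

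The remaining members of this role exchange ATP-Mg for phosphate. SLC25A23, which does so under calcium control, held 249.6, 249, 229.5 and 257 CPM at Day 30, 265, 228 and 242 CPM at Day 60 and 151, 206, 204 and 165 CPM at Day 113. Its Day 113 wells lay below all others, and it fell by 0.43 on the log2 scale after Day 60 (log2 -0.43, SE 0.11, adjusted p 0.012, or 0.055 without the first Day 60 well). SLC25A24 had 45.5, 56.7, 55.3 and 51.6 CPM at Day 30, 45.4, 49.9 and 49.9 CPM at Day 60 and 59.2, 56.5, 59.3 and 61.5 CPM at Day 113. Its Day 113 wells lay above those of Day 60 but not above those of Day 30. The rise after Day 60 (log2 0.29, SE 0.10, adjusted p 0.046) was lost in 9 of the 11 removals of 1 well (adjusted p 0.059 to 0.18), and under RLE scaling (0.059) and upper-quartile scaling (0.13).

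**Figure D2:**
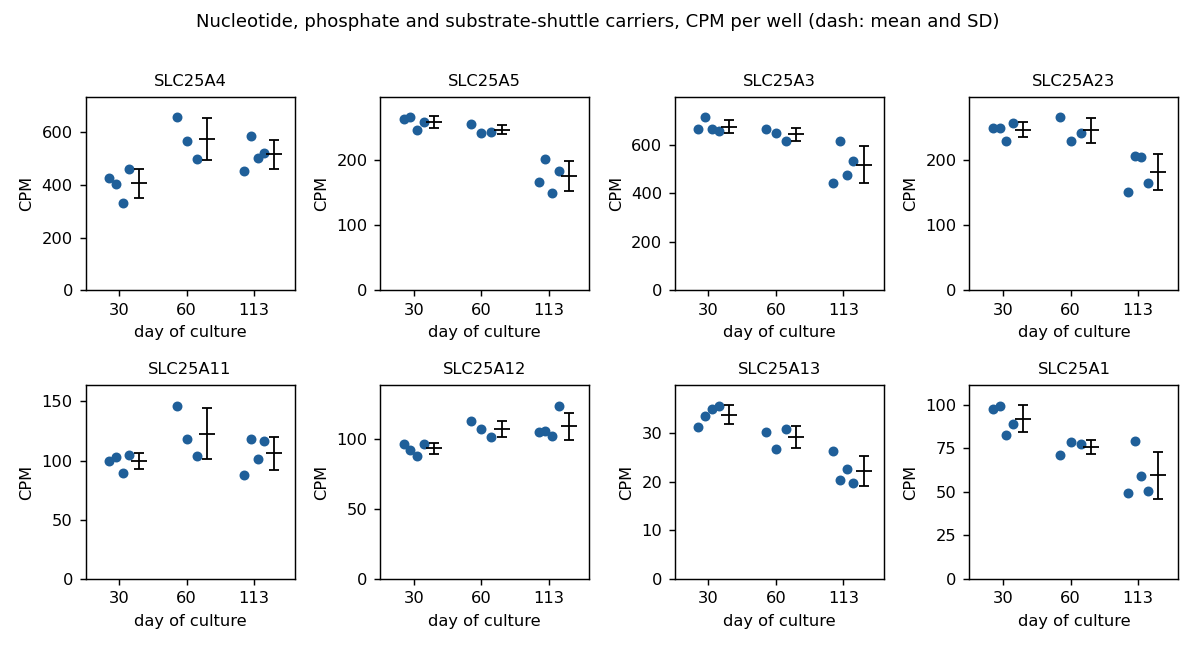
CPM of 8 nucleotide, phosphate and substrate-shuttle carriers in each well (points) by day of culture, with the mean and SD (dash and bars) beside each day. SLC25A5 shows all 4 Day 113 wells below the 7 earlier ones, and SLC25A4 shows all 3 Day 60 wells above the 4 Day 30 wells.

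The ratio of the ADP/ATP carriers SLC25A4 and SLC25A5 within a library does not depend on library scaling. It leaves out the members that were not analysed here, SLC25A6 and SLC25A31 among them. As a log2 count ratio (pseudocount 0.5), SLC25A4 to SLC25A5 was 0.70, 0.61, 0.43 and 0.84 in the Day 30 wells. It was 1.37, 1.23 and 1.04 at Day 60 and 1.45, 1.54, 1.75 and 1.51 at Day 113. The 3 days did not overlap, and each later day lay above the one before, with means of 0.64 ± 0.17 (SD, n = 4), 1.21 ± 0.16 (SD, n = 3) and 1.56 ± 0.13 (SD, n = 4). Differences were 0.57 from Day 30 to Day 60, 0.35 from Day 60 to Day 113 and 0.92 over the whole span. In two-sided exact permutation tests each gave p = 0.0286, the smallest these group sizes allow, and 0.0514 after adjustment over 9 ratio tests.

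For the aspartate/glutamate carriers, SLC25A12 to SLC25A13 gave log2 ratios of 1.63, 1.46, 1.34 and 1.44 at Day 30, 1.90, 2.00 and 1.72 at Day 60, and 1.99, 2.38, 2.18 and 2.65 at Day 113. Day 30 stood below both later days, and Day 60 and Day 113 overlapped by 1 well each. The differences were 0.41 from Day 30 to Day 60 and 0.83 from Day 30 to Day 113 (exact permutation p = 0.0286 and adjusted 0.0514 for both), and 0.43 from Day 60 to Day 113 (exact permutation p = 0.0857, adjusted 0.110). For the iron carriers SLC25A28 to SLC25A37 the means were -2.88 ± 0.10 (SD, n = 4), -3.15 ± 0.48 (SD, n = 3) and -2.57 ± 0.29 (SD, n = 4), the days overlapped, and the exact permutation p was 0.0857 to 0.343 in the 3 comparisons. No ratio passed 0.05 after adjustment.

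**Figure D3:**
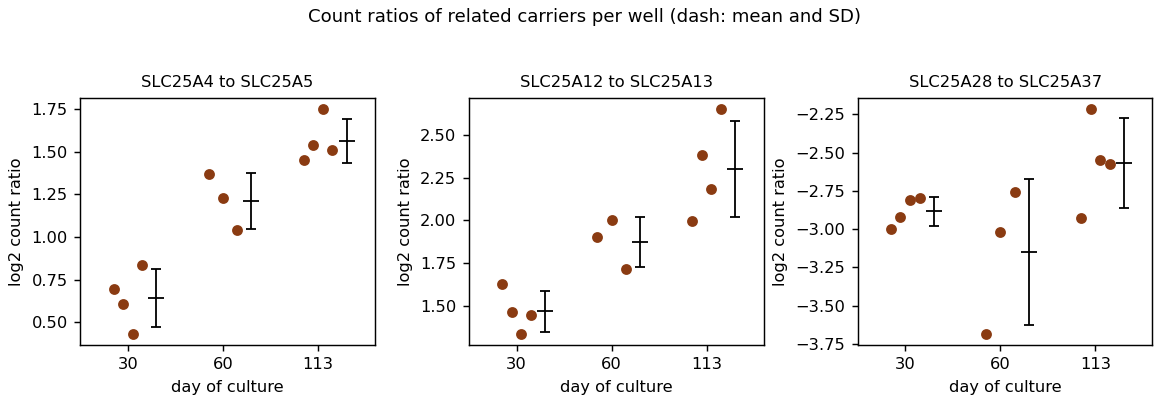
Log2 count ratio of 3 pairs of related carriers in each well (points) by day, with mean and SD (dash and bars); the vertical axes do not start at 0. SLC25A4 to SLC25A5 steps up from means of 0.64 to 1.21 and 1.56 with no overlap between days, and SLC25A28 to SLC25A37 overlaps.

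Among the 8 carriers of the malate-aspartate shuttle, dicarboxylates, citrate and glutamate, 0 were called between Day 30 and Day 60 (3 at an unadjusted p under 0.05 in edgeR), 2 rose and 1 fell between Day 60 and Day 113, and 1 rose and 2 fell over the whole span. The last 2 counts are each 37.5% of the role, where 24.0% and 34.5% of all genes were called. SLC25A13 (citrin, chromosome 7, 96120220 to 96322147) is the aspartate/glutamate carrier typical of liver. It held 31.2, 33.5, 35.01 and 35.7 CPM at Day 30, 30.4, 26.8 and 30.9 CPM at Day 60 and 26.4, 20.3, 22.7 and 19.7 CPM at Day 113. The 3 days did not overlap and each lay below the one before, with a log2 fold change of -0.60 from Day 30 to Day 113 (SE 0.12, adjusted p 0.00082). The step from Day 60 to Day 113 was -0.40 (SE 0.12, adjusted p 0.03), and 5 of the 11 removals of 1 well, replicates 1 and 3 of Day 60 and 2, 3 and 4 of Day 113, ended that call (adjusted p 0.053 to 0.088). The hepatocyte or endoderm markers fell over the same span, all 7 between Day 30 and Day 113. All 7 also fell between Day 30 and Day 60, where SLC25A13 was not called (log2 -0.21). Their part in the fall of SLC25A13 was not tested.

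SLC25A12 (aralar, chromosome 2, 171784370 to 171999859) is the form typical of heart, muscle and brain. Its wells held 96.6, 92.3, 88.4 and 97.01 CPM at Day 30, 113, 107 and 102 CPM at Day 60 and 105, 106, 103 and 124 CPM at Day 113. Both later days lay above Day 30 without overlap, yet neither difference was called (log2 0.20, SE 0.09, adjusted p 0.21 at Day 60, and log2 0.23, SE 0.09, adjusted p 0.054 at Day 113). The Day 113 difference passed in 5 alternatives, with adjusted p-values from 0.037 to 0.049. SLC25A11, the oxoglutarate/malate carrier, measured 99.8, 103, 89.6 and 105 CPM at Day 30, 146, 118 and 104 CPM at Day 60 and 88.2, 118, 101 and 116 CPM at Day 113. Its days overlapped and no comparison was called (adjusted p 0.15, 0.25 and 0.58).

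The matching shuttle enzymes were 4. GOT1, the cytosolic aspartate aminotransferase, rose from a mean of 214 CPM to 288 CPM by Day 60 (log2 0.43, SE 0.12, adjusted p 0.027) and fell to 180.0 CPM by Day 113 (log2 -0.68, SE 0.12, adjusted p 0.00064). Over the whole span, the cytosolic malate dehydrogenase MDH1 rose (log2 0.40, SE 0.13, adjusted p 0.025) and the mitochondrial MDH2 fell (log2 -0.33, SE 0.11, adjusted p 0.028). GOT2, the mitochondrial aminotransferase, was called in no comparison (adjusted p 0.37, 0.34 and 0.88).

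SLC25A1 exports citrate, from which the cytosol makes acetyl-CoA for lipid synthesis. It held 97.4, 99.3, 82.5 and 89.1 CPM at Day 30, 70.9, 78.7 and 77.3 CPM at Day 60 and 49.4, 78.9, 59.1 and 50.6 CPM at Day 113. Day 113 lay below Day 30 without overlap (log2 -0.63, SE 0.13, adjusted p 0.0014), though 1 of its wells lay above every Day 60 well.
SLC25A10, the dicarboxylate carrier, had 10.4, 12.1, 11.7 and 8.73 CPM at Day 30, 7.405, 13.8 and 7.82 CPM at Day 60 and 15.2, 20.6, 15.2 and 17.7 CPM at Day 113. All Day 113 wells were above all earlier wells, and the gene rose 1.60-fold over the whole span (log2 0.68, SE 0.20, adjusted p 0.015). From Day 60 it rose by 0.83 on the log2 scale (SE 0.22, adjusted p 0.012), a call lost without the first or the third Day 60 well (adjusted p 0.069 and 0.064). An unnamed gene overlaps 1221 bases of its exons on the same strand, and their reads cannot be told apart.

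SLC25A21, which carries oxodicarboxylates of lysine and tryptophan breakdown, was low, with 2.44, 4.17, 3.49 and 4.12 CPM at Day 30, 2.298, 2.47 and 1.42 CPM at Day 60 and 2.97, 4.87, 3.99 and 4.05 CPM at Day 113. Day 113 lay above Day 60 and overlapped with Day 30. The rise from Day 60 (log2 0.95, SE 0.32, adjusted p 0.042) was lost in 9 of the 11 removals of 1 well (adjusted p 0.052 to 0.16) and with upper-quartile scaling (0.055).

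Of the 5 carnitine and amino acid carriers, 0 were called between Day 30 and Day 60 (3 at an unadjusted p under 0.05 in edgeR). Between Day 60 and Day 113, 1 fell (20%, against 24.0% of all genes called). Over the whole span, 1 rose (20%, against 34.5%). SLC25A20, which exchanges acylcarnitines for carnitine in fatty acid import, held 18.7, 16.6, 18.2 and 21.5 CPM at Day 30, 13.7, 17.9 and 12.5 CPM at Day 60 and 17.5, 16.4, 16.5 and 16.2 CPM at Day 113. All 3 days overlapped and no comparison was called (adjusted p 0.17, 0.42 and 0.38 for Day 60 against Day 30, Day 113 against Day 60 and Day 113 against Day 30). Of 6 further genes of the carnitine shuttle, 2 fell between Day 30 and Day 60, 1 of them CPT2 (log2 -0.40, SE 0.12, adjusted p 0.044).

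SLC25A44 carries branched-chain amino acids. It held 23.1, 18.5, 28.2 and 19.6 CPM at Day 30, 27.5, 24.9 and 29.4 CPM at Day 60 and 36.9, 30.1, 31.01 and 30.1 CPM at Day 113. All Day 113 wells lay above all earlier ones, and the rise over the whole span was 1.43-fold (log2 0.52, SE 0.14, adjusted p 0.008).
SLC25A29, which carries basic amino acids, had 103, 89.2, 90.3 and 95.7 CPM at Day 30, 113, 112 and 116 CPM at Day 60 and 72.6, 95.7, 87.1 and 84.7 CPM at Day 113. Its Day 60 wells stood above both other days without overlap. The rise to Day 60 was not called (log2 0.27, SE 0.10, adjusted p 0.11), and the fall after it was (log2 -0.42, SE 0.10, adjusted p 0.0066).

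In the group of 4 iron and glutathione carriers, 0 were called by Day 60 (1 at an unadjusted p under 0.05 in edgeR), 2 fell between Day 60 and Day 113, and 1 fell over the whole span. The last 2 counts are 50% and 25% of the group, where 24.0% and 34.5% of all genes were called. SLC25A37 (mitoferrin-1, chromosome 8, 23528805 to 23575463) brings iron into the matrix. Its wells measured 141, 132, 134 and 129 CPM at Day 30, 149, 137 and 136 CPM at Day 60 and 105, 88.3, 101 and 104 CPM at Day 113. Day 113 lay below both earlier days in every well, at 1.41-fold lower than Day 60 (log2 -0.50, SE 0.09, adjusted p 0.001). SLC25A40, one of a pair of glutathione carriers, had 25.4, 22.9, 22.9 and 22.8 CPM at Day 30, 31.6, 27.9 and 26.1 CPM at Day 60 and 21.2, 20.1, 19.8 and 21.3 CPM at Day 113. The Day 60 wells stood above both other days. Only the fall after Day 60 was called among its 3 comparisons (log2 -0.47, SE 0.12, adjusted p 0.0078). SLC25A39, the other glutathione carrier, and SLC25A28 (mitoferrin-2) were called in no comparison.

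Of 5 genes that use iron in the matrix, 0 were called between Day 30 and Day 60 (0 at an unadjusted p under 0.05 in edgeR), and 2 rose between Day 60 and Day 113. FECH, which inserts iron into haem, rose from a mean of 31.9 CPM to 54.2 CPM in that interval (log2 0.76, SE 0.14, adjusted p 0.00097). The iron-sulfur scaffold ISCU rose too (log2 0.47, SE 0.11, adjusted p 0.0051). The difference between the carriers and these genes was not tested.

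Among the 9 cofactor and nucleotide carriers, 1 rose between Day 30 and Day 60 (11.1%, against 10.3% of all genes called). Between Day 60 and Day 113, 3 fell (33.3%, against 24.0%), and 2 fell over the whole span (22.2%, against 34.5%). SLC25A36, a carrier of pyrimidine nucleotides (chromosome 3, 140941830 to 140980961), held 265, 237, 246 and 279 CPM at Day 30, 332, 275 and 284 CPM at Day 60 and 202, 147, 206 and 175 CPM at Day 113. All Day 113 wells lay below all earlier wells, while Day 30 and Day 60 overlapped. It was 1.63-fold lower at Day 113 than at Day 60 (log2 -0.70, SE 0.12, adjusted p 0.0006) and 1.41-fold lower than at Day 30 (log2 -0.49, SE 0.11, adjusted p 0.0027).

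SLC25A42, which carries coenzyme A (chromosome 19, 19063999 to 19112888), had 23.8, 22.02, 21.2 and 18.4 CPM at Day 30, 31.6, 28.01 and 29.2 CPM at Day 60 and 17.03, 22.5, 21.99 and 16.8 CPM at Day 113. Its Day 60 wells stood above all 8 others. It rose 1.39-fold to Day 60 (log2 0.47, SE 0.14, adjusted p 0.044) and then fell 1.51-fold (log2 -0.59, SE 0.14, adjusted p 0.0065). The rise was lost on removal of any of the 7 wells of the 2 days compared (adjusted p 0.051 to 0.13), while the fall held in all 19 alternatives on counts.
SLC25A26 brings S-adenosylmethionine into the matrix. It measured 22.1, 22.3, 20.5 and 25.3 CPM at Day 30, 23.6, 20.01 and 22.7 CPM at Day 60 and 14.7, 18.9, 13.4 and 17.7 CPM at Day 113, with all Day 113 wells below all others. The log2 fold change was -0.48 over the whole span (SE 0.14, adjusted p 0.011) and -0.46 from Day 60 (SE 0.15, adjusted p 0.032), the latter lost without 1 of 4 wells (adjusted p 0.067 to 0.11). LRIG1 overlaps 907 bases of its exons on the other strand.

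Of the 3 relatives of the uncoupling proteins, SLC25A30 (chromosome 13, 45393316 to 45418455) was called. Its wells held 25.4, 21.7, 19.9 and 27.5 CPM at Day 30, 37.4, 34.9 and 31.2 CPM at Day 60 and 23.3, 22.8, 27.3 and 29.00 CPM at Day 113. The Day 60 wells were above all 8 others. SLC25A30 rose 1.46-fold to Day 60 (log2 0.55, SE 0.14, adjusted p 0.018) and fell 1.35-fold after it (log2 -0.43, SE 0.14, adjusted p 0.033). Each call was lost without any 1 of 4 wells, with adjusted p-values of 0.052 to 0.081 for the rise and 0.064 to 0.13 for the fall.

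Whether the change after Day 60 differed from the change before it was tested for every gene in the same edgeR fit. In 6 of 43 members (14.0%) it differed, always towards a lower later change, where 9.34% of all genes were called, 4.97% with a higher and 4.38% with a lower later change. The difference on the log2 scale was -1.07 for SLC25A42 (SE 0.25, adjusted p 0.014), -0.98 for SLC25A30 (SE 0.24, adjusted p 0.019) and -0.91 for SLC25A36 (SE 0.21, adjusted p 0.013). It was -0.75 for SLC25A40 (SE 0.20, adjusted p 0.03), -0.69 for SLC25A29 (SE 0.18, adjusted p 0.023) and -0.56 for SLC25A37 (SE 0.16, adjusted p 0.037). In 4 of these genes, SLC25A29, SLC25A30, SLC25A40 and SLC25A42, all Day 60 wells lay above the wells of both other days. A lower later change in this test favours genes that are high at Day 60 in the same wells. The position of the wells therefore largely repeats the selection, and the share of all genes with it was not counted. Without the first of the 3 Day 60 wells all 6 calls were lost (adjusted p 0.074 to 0.16). Counting that well, the call of SLC25A37 was lost in 7 removals of 1 well (adjusted p 0.053 to 0.16). Those of SLC25A40 and SLC25A29 were lost in 3 each, and that of SLC25A30 in 2. Markers of dividing cells had their highest sum at Day 60 as well, and their part in these values was not tested.

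**Figure D4:**
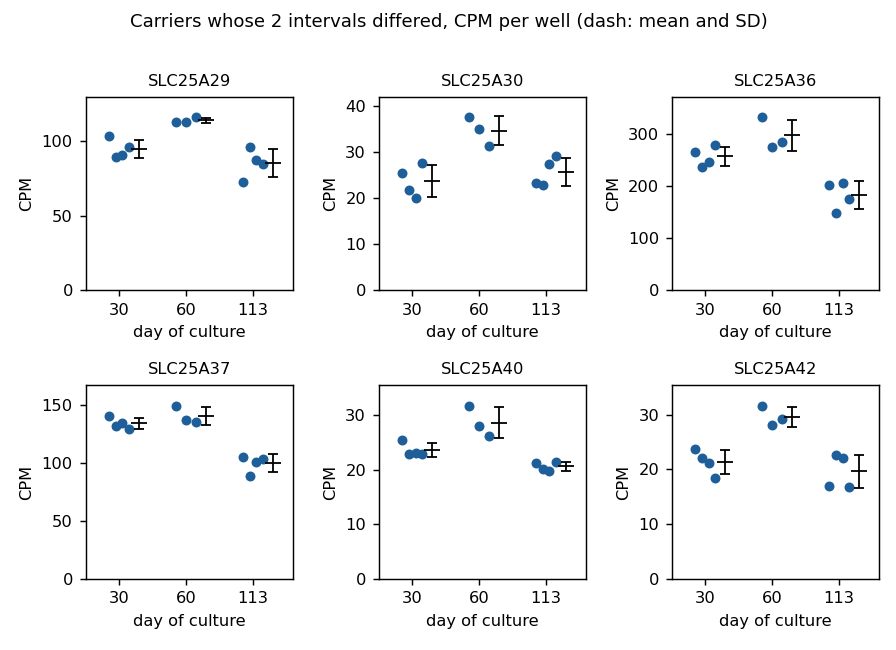
CPM of the 6 carriers whose change after Day 60 differed from the change before it, in each well (points) by day, with mean and SD (dash and bars). The 3 Day 60 wells stand above all other wells for SLC25A29, SLC25A30, SLC25A40 and SLC25A42, and the Day 113 wells of SLC25A36 and SLC25A37 lie below all earlier wells.

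Among the 7 outer membrane or little-characterised members, 0 were called between Day 30 and Day 60 (1 at an unadjusted p under 0.05 in edgeR), 2 rose between Day 60 and Day 113, and 2 rose and 1 fell over the whole span. Calls after Day 60 and over the whole span covered 28.6% and 42.9% of these members, against 24.0% and 34.5% of all genes. SLC25A46 (chromosome 5, 110738136 to 110765161) sits in the outer membrane and takes part in the shaping of mitochondria. It held 84.1, 80.7, 79.5 and 82.4 CPM at Day 30, 94.8, 87.04 and 92.5 CPM at Day 60 and 112, 101, 131 and 129 CPM at Day 113. The 3 days did not overlap and each lay above the one before. SLC25A46 was 1.45-fold higher at Day 113 than at Day 30 (log2 0.53, SE 0.09, adjusted p 0.00036), and its rise from Day 60 (log2 0.37, SE 0.10, adjusted p 0.014) was lost without the second Day 60 well (0.058).

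SLC25A45 (chromosome 11, 65375192 to 65383701), at low levels, had 6.72, 6.94, 6.98 and 8.28 CPM at Day 30, 6.798, 8.77 and 7.697 CPM at Day 60 and 11.8, 19.1, 13.1 and 11.1 CPM at Day 113. All Day 113 wells lay above all others, the second one farthest. Its 1.90-fold rise from Day 30 to Day 113 had the largest log2 fold change among the members called in that comparison that rose (0.93, SE 0.19, adjusted p 0.0013). SLC25A43 (chromosome X, 119399060 to 119454478) gave 6.76, 5.44, 5.496 and 7.52 CPM at Day 30, 4.92, 4.901 and 4.29 CPM at Day 60 and 4.16, 3.899, 2.25 and 2.33 CPM at Day 113. The days did not overlap, and the log2 fold change over the whole span was -0.99 (SE 0.25, adjusted p 0.0063), the largest fall among the members. Neither step alone was called for SLC25A43 (adjusted p 0.4 and 0.14).

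The other 23 members were called in no pair of days. Their mean over all wells ran from 0.633 to 108 CPM, and 7 of them had a mean under 5 CPM, where counting error weighs more. Their log2 fold changes ran from -0.61 to 0.79 between Day 30 and Day 60, from -0.21 to 1.03 between Day 60 and Day 113 and from -0.32 to 0.76 over the whole span. The value of 1.03 belongs to SLC25A34 (SE 0.38, adjusted p 0.062), at mean levels of 1.37 CPM at Day 60 and 2.79 CPM at Day 113, and it is the single member past a log2 fold change of 1 in any pair. SLC25A17, a carrier of peroxisomes, came nearest to a call between Day 30 and Day 60 (log2 -0.61, SE 0.19, adjusted p 0.054). In simulated data with the real library sizes, 31.3% of genes changed 1.5-fold between Day 30 and Day 113 were called, against 67.2% at 2-fold. Far fewer genes changed there than the 34.5% called in the data, which makes the adjusted threshold stricter. The simulated shares therefore do not give the share of changed carriers that was missed here. The median absolute log2 fold change of the 43 members was 0.24, 0.33 and 0.32 in the 3 comparisons, against 0.27, 0.39 and 0.43 for all genes.

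Carriers outside the symbol rule and the proteins around them give the setting. MPC1, a subunit of the mitochondrial pyruvate carrier, was the listed carrier called between Day 30 and Day 60, from a mean of 51.4 CPM to 101 CPM (log2 0.98, SE 0.13, adjusted p 0.0002), and it then fell to 74.2 CPM (log2 -0.45, SE 0.13, adjusted p 0.019). Of 12 such carriers measured, 1 rose and 3 fell between Day 60 and Day 113, and 3 rose and 2 fell over the whole span. UCP2, an uncoupling protein, fell from a mean of 17.4 to 7.13 CPM between Day 60 and Day 113 (log2 -1.29, SE 0.19, adjusted p 0.00024). SFXN1, a mitochondrial serine carrier, fell from 111 to 60.6 CPM (log2 -0.87, SE 0.09, adjusted p 1.5e-05). Of 6 genes of the outer membrane and of energy transfer, 2 rose between Day 30 and Day 60, 1 fell between Day 60 and Day 113, and 2 rose and 1 fell over the whole span. CKMT2, the mitochondrial creatine kinase of muscle that works beside the ADP/ATP carriers, rose from a mean of 119.5 CPM to 267 CPM by Day 60 (log2 1.16, SE 0.16, adjusted p 0.00031). VDAC3, an outer membrane channel, rose in the same interval (log2 0.50, SE 0.12, adjusted p 0.011), and the channel VDAC2 fell between Day 60 and Day 113 (log2 -0.37, SE 0.09, adjusted p 0.01). Of 15 nuclear-encoded ATP synthase subunits, 0 were called in either interval (3 and 2 at an unadjusted p under 0.05 in edgeR) and 4 rose over the whole span, with medians of 0.25, 0.04 and 0.30 on the log2 scale.

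Carriers enter mitochondria through the outer membrane TOM complex and the inner membrane TIM22 complex. Of 12 genes of this route, 0 were called between Day 30 and Day 60 (0 at an unadjusted p under 0.05 in edgeR), 1 rose and 2 fell between Day 60 and Day 113, and 3 rose and 2 fell over the whole span. TOMM20, a receptor of the TOM complex, fell from a mean of 340.0 CPM at Day 60 to 209.7 CPM at Day 113 (log2 -0.70, SE 0.08, adjusted p 4.2e-05). TOMM70, the receptor for carriers, was called in no comparison. Among 9 regulators of mitochondrial genes, 0 were called between Day 30 and Day 60 (1 at an unadjusted p under 0.05 in edgeR) and 4 fell between Day 60 and Day 113. These were PPARGC1A, a coactivator of mitochondrial biogenesis (log2 -0.95, SE 0.21, adjusted p 0.0048), and the nuclear receptors ESRRB, ESRRG and PPARA.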

How the data were processed

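Poly(A) RNA of 11 wells of WTC11-derived cardiomyocytes was sequenced as paired reads of 150 bases, per the labels' protocols. The submitters' processing notes name STAR 2.5.3a, featureCounts 2.0.3 and hg38; the annotation and strand setting are not given in the sources used here. The authors deposited whole-number counts for 19990 genes, without normalization, and a table of TPM values. Gene lengths implied by count over TPM did not repeat between libraries (median Spearman rho -0.0017 over 55 library pairs, across 12309 genes with counts, which are not independent), so TPM served only as an alternative.

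Counts of all 11 libraries were fitted with edgeR 4.0.16 (glmQLFit and glmQLFTest, R 4.3.3), with TMM factors of 0.966 to 1.04 and day as the factor. The filterByExpr step (minimum count 10) removed 0 genes. Adjusted p-values are Benjamini-Hochberg values over 19990 genes within a contrast, and SE is the absolute log2 fold change over the square root of F. Ratios used a pseudocount of 0.5 and exact permutation tests (SciPy 1.17.1). Levels per kb divide by 1 GENCODE 29 transcript per gene. Alternatives were other scalings, filters and thresholds, DESeq2 1.42.0, limma-voom (limma 3.58.1), log2(TPM + 1), a replicate block (its check stands with the alternatives) and the removal of each well. Wells of a day differed beyond sampling noise (chi-square over its degrees of freedom, 11.4 to 84.0 per pair), so each was counted as a sample; p-values measure the spread between wells of 1 differentiation. The floor of 3 counts covers counting error only.

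Some genes are not reported here, and the list of genes that use iron in the matrix was counted without them. Of the 43 members, 21 have exons that overlap another annotated gene. Well values are given for members called in a comparison and for SLC25A3, SLC25A4, SLC25A5, SLC25A11, SLC25A12, SLC25A13 and SLC25A20. SLC25A17 and SLC25A34 were singled out after their values were seen. The members and lists were chosen with earlier results of these data known. The fit was tested on simulated data for Day 113 against Day 30 over 19990 genes: it called 21 of 67 genes changed 1.5-fold, 45 of 67 changed 2-fold and 57 of 66 changed 4-fold, and 3.91% of its calls were unchanged genes.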

Additional observations from a re-analysis of the deposited data

Results flagged for a closer look

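Of 86 member groups of 4 wells tested with Dixon's ratio of gap to range at the 95% level, 5 held a well apart from the other 3, where chance gives about 1 group in 20. They were SLC25A44 at Day 113 in replicate 1 (ratio 0.863, at 36.9 CPM against 30.1 to 31.0), SLC25A12 at Day 113 in replicate 4 (0.849, at 124 CPM against 103 to 106) and SLC25A40 at Day 30 in replicate 1 (0.939, at 25.4 CPM against 22.8 to 22.9). SLC25A45 at Day 30 stood apart in replicate 4 (0.837, at 8.28 CPM against 6.72 to 6.98), and SLC25A3 at Day 30 in replicate 2 (0.853, at 712 CPM against 658 to 666). All 5 lay above the other wells, and they came from 5 different wells of 2 days.

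For 6 carriers the change from Day 60 to Day 113 was lower than that from Day 30 to Day 60 in edgeR's test of the difference. The log2 difference was -1.07 for SLC25A42, -0.98 for SLC25A30, -0.91 for SLC25A36, -0.75 for SLC25A40, -0.69 for SLC25A29 and -0.56 for SLC25A37, with adjusted p-values of 0.014, 0.019, 0.013, 0.030, 0.023 and 0.037. Both changes share the 3 Day 60 wells, and without the first of these 0 of the 6 differences passed. Removals of other single wells also ended the calls of SLC25A37, SLC25A40, SLC25A29 and SLC25A30.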

How the results depend on the processing

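Of 33 calls of members over the 3 pairs of days, 20 held in all 19 alternatives run on counts, and 0 changed direction there. With a threshold of 0.01 the counts of members called were 0 from Day 30 to Day 60, 7 in the interval after it, 0 for the difference between the 2 intervals and 10 for any change over the 3 days, against 3, 16, 6 and 18 at 0.05. Leaving out each well in turn gave 0 to 5, 8 to 15, 0 to 8 and 16 to 21 for these, and 13 to 17 for Day 113 against Day 30, where 14 were called. The shares of all genes given in the results are for the full set of wells at 0.05, and not for these settings. The well whose removal ended most calls was the first of Day 60. With the replicate number as a block the counts were 3 and 14 in the first and second interval, 15 over the whole span, 9 for the difference and 19 for any change, and 30 of the 33 calls held. The others were SLC25A42 from Day 30 to Day 60 (adjusted p 0.076) and SLC25A24 and SLC25A21 from Day 60 to Day 113 (0.056 and 0.066). The labels do not say that equal numbers on different days belong together. The 10 same-numbered pairs correlated at 0.023 to 0.076, all above 0 and none over 0.1, and the other pairs at -0.078 to 0.069. In 17 of 20 comparisons the best partner had the same number. Whether wells of the same number share a source of spread was not tested. Upper-quartile scaling shifted the median of all genes by at most 0.066 on the log2 scale. SLC25A12 from Day 60 to Day 113, at 0.028, turned to -0.036 with upper-quartile scaling and -0.013 with the replicate block, and ran from -0.036 to 0.062 without 1 well.

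On log2(TPM + 1) limma called 0 members in each of the 5 comparisons, with 3, 1, 0, 1 and 0 at an unadjusted p under 0.05. There, from Day 30 to Day 60, the log2 fold change turned to -0.30 for SLC25A12, 1.43 for SLC25A20, 0.76 for SLC25A13, -0.39 for SLC25A30, -0.89 for SLC25A11 and -1.67 for SLC25A42. From Day 60 to Day 113 it turned to -1.71 for SLC25A20, 0.069 for SLC25A36, 0.64 for SLC25A13, 1.99 for SLC25A3, 0.90 for SLC25A30, 1.48 for SLC25A11, 0.37 for SLC25A42 and 0.80 for SLC25A5. From Day 30 to Day 113 it turned to -1.82 for SLC25A44, 0.55 for SLC25A26, 1.40 for SLC25A13, 0.71 for SLC25A37 and 1.14 for SLC25A3. The difference between intervals turned to 0.57 for SLC25A36, 1.29 for SLC25A30 and 2.04 for SLC25A42. As a ratio of TPM values, SLC25A4 to SLC25A5 turned to -2.42 from Day 60 to Day 113, and SLC25A12 to SLC25A13 to -1.21 from Day 30 to Day 60 and -0.77 from Day 30 to Day 113. The implied gene lengths of that table differ between libraries, and the cause was not tested.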

Other observations

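Genes of mitochondrial folate metabolism act in the matrix. Of 5 measured, 2 fell between Day 30 and Day 60 (40.0%, where 10.3% of all genes were called), and 4 rose between Day 60 and Day 113 (80.0%, where 24.0% of all genes were called). Over the whole span 2 rose and 1 fell. ALDH1L2, a mitochondrial formyltetrahydrofolate dehydrogenase, ranged over wells from 5.35 to 11.9 CPM at Day 30, from 2.87 to 4.82 CPM at Day 60 and from 11.1 to 30.5 CPM at Day 113 (log2 -1.20, SE 0.35, adjusted p 0.037 for the first step, and log2 2.52, SE 0.36, adjusted p 0.00016 for the second step). MTHFD2, a mitochondrial one-carbon enzyme, ranged from 39.7 to 55.04 CPM at Day 30, from 25.6 to 29.4 CPM at Day 60 and from 43.2 to 66.6 CPM at Day 113 (log2 -0.73, SE 0.15, adjusted p 0.0063 for the first step, and log2 0.96, SE 0.16, adjusted p 0.00042 for the second step). SLC25A32, the folate carrier of the family, ranged from 24.3 to 36.5, 25.4 to 27.7 and 20.7 to 30.1 CPM on these days and was called in no comparison (adjusted p 0.53, 0.61 and 0.1 for the first step, the second step and the whole span). Exons of 2 other genes overlap SLC25A32, 1 of them on the same strand.

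In the calcium uniporter list, 1 of 6 genes was called between Day 60 and Day 113 and the same number over the whole span. It was MICU2, a regulator of the channel, which rose (log2 0.84, SE 0.14, adjusted p 0.00045 from Day 60, and log2 0.82, SE 0.12, adjusted p 0.00012 from Day 30).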
